A study of Mus musculus with 14 samples.

Results

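The report describes Selenom and 9 other mouse selenoprotein genes (Selenop, Selenow, Selenok, Selenot, Selenos, Selenof, Selenoh, Selenon and Selenoi), which are 10 of the 53700 genes in the tables. The genes were chosen by symbol, with no threshold stated, and with their log2 fold changes in both comparisons known. Their differences are therefore a description, without p-values, and how many of them passed the threshold of the whole-table fit is given beside the share of all genes and supports nothing. The other gene lists were also chosen with earlier results of these data known. Adjusted p-values printed for their genes come from the whole-table fit and are a description too. Of the lists for the endoplasmic reticulum, phospholipid synthesis and calcium, genes were named for the size of their change among those called. The cells were adult neural stem and progenitor cells of C57BL/6 mice, and poly-A RNA of 14 libraries was sequenced. The quiescent group was treated with BMP4 (4 libraries) and the proliferating group with FGF and EGF (4 libraries). In the other pair, both groups were kept in FGF and EGF. The control received an adeno-associated virus that carries GFP (3 libraries), and the Yme1l KO group received one that carries Cre and GFP (3 libraries). The study set quiescent against active cells, and wild-type cells against cells without the mitochondrial protease YME1L. Mice are called wild-type in the labels of all 14 libraries, KO included, and neither a floxed allele nor the promoter that drives Cre is given. Whether replicates came from separate animals or cultures is not stated, so that p-values reflect the spread between libraries of a group and this spread can be technical.

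Selenoproteins hold selenocysteine, an amino acid in which selenium takes the place of the sulfur of cysteine. It is encoded by UGA, otherwise a stop codon, which is read as selenocysteine when the mRNA carries a hairpin called the SECIS element and when a dedicated tRNA, a SECIS-binding protein and a specialised elongation factor are at hand. Many selenoproteins are oxidoreductases, and the brain holds on to selenium when supply is short, fed by the secreted carrier SELENOP through the receptor LRP8.

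The selenocysteine codon is shown for 6 of the genes, the ones with the highest levels or the largest differences in the results that follow, because this codon defines the family. Each line gives the coding strand with 4 codons before and 5 codons after the first in-frame TGA, which is in capitals. The letters are from GENCODE release M21 transcripts (GRCm38), matched by transcript ID, and lie in coding exons.
Selenom: acctgtggaggaTGAcagttgaatcgccta
Selenow: tattgtggagctTGAggctataagcccaag
Selenot: atttgtgtatccTGAgggtaccggcgggtg
Selenoh: cattgtacgagcTGAcgcgtgtacggccgc
Selenof: gaagtctgcggaTGAaaattggggaggttc
Selenop: cttcaagccagcTGAtacttgtgtcttctg
In Selenom, Selenow, Selenot and Selenoh a cysteine codon (TGT) stands 3 codons before the TGA, the spacing of a redox motif in which a cysteine and a selenocysteine are separated by a pair of residues. Selenof has a cysteine codon (TGC) 2 codons before it. The TGA is codon 48 of 145 in Selenom, 13 of 88 in Selenow, 49 of 195 in Selenot, 38 of 116 in Selenoh and 93 of 162 in Selenof. Selenop has 10 in-frame TGA codons, the first at codon 59 of 380, and each of the other 9 genes has 1. In Selenok and Selenos, whose proteins sit in the endoplasmic reticulum (ER) membrane, the TGA is almost the last codon, at 92 of 94 and 189 of 190.

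In the coordinates of the deposited table (GRCm39), Selenom lies on chromosome 11 at 3464684 to 3467351 on the plus strand, and Selenop on chromosome 15 at 3298029 to 3309990 on the plus strand. Selenoh lies on chromosome 2 at 84499559 to 84501114 on the minus strand, and Selenow on chromosome 7 at 15651133 to 15656327 on the minus strand. Selenot lies on chromosome 3 at 58484057 to 58500554 and Selenof on the same chromosome at 144276065 to 144303441, both on the plus strand.

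Library totals were 6475099 to 8797750 estimated counts in the quiescent, 8331999 to 8992709 in the proliferating, 9226080 to 10320736 in the GFP control and 9053124 to 9490756 in the KO libraries. Yme1l1, the targeted gene, stood at 24.7 ± 1.61 CPM (counts scaled to library size, SD, n = 3) in the KO and at 127 ± 7.49 CPM (SD, n = 3) in the GFP control, a log2 fold change of -2.36 (SE 0.07, adjusted p = 5.89e-11, edgeR). All 8 markers of neural stem and progenitor cells were above 1 TPM in each group. Their summed level was 3767 to 4190 TPM in the KO libraries and 5394 to 5599 TPM in the GFP control. Markers of microglia were low, with a summed level of 0 to 6.08 TPM over all libraries, and Cx3cr1, C1qa, C1qb and Ptprc at 0 in each group mean. Tmem119 was higher in quiescent than in proliferating cells (3.28 against 0.09 TPM, log2 fold change 5.01, adjusted p = 4.99e-06, edgeR). P2ry12 averaged 4.56 TPM in the KO and 2.81 TPM in the GFP control (adjusted p = 0.0923, edgeR). On principal components, KO replicate 3 stood apart from the other KO libraries (36.5 on the first component against 18.6 and 16.6) and quiescent replicate 2 from the other quiescent libraries (-27.1 on the second against 4.76 to 13.97). The log2 fold changes of the 10 genes are given with these libraries, and also without them.

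Selenom encodes a small protein of the ER lumen with a thioredoxin-like fold, and it was the selenoprotein gene that differed most between quiescent and proliferating cells. Its level was 1453, 1376, 1434 and 1385 TPM (a level per transcript length) in quiescent replicates 1 to 4. In the proliferating libraries it was 93.6, 87.2, 92.3 and 84.3 TPM. Every quiescent library lay far above every proliferating one, and the spread within each group was small. The means were 1412 ± 37.5 TPM (SD, n = 4) and 89.4 ± 4.37 TPM (SD, n = 4), a ratio of 15.8. The log2 fold change of the counts was 3.96 (SE 0.06), in place 81 from the top of the 12245 genes tested. Without quiescent replicate 2 it was 4.07. In bulk RNA, a larger number of cells that express a gene and more RNA per cell cannot be told apart.

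By its mean level, Selenom was in place 87 of the 19059 genes with a TPM above 0 in quiescent cells and in place 2052 of 19309 in proliferating cells. The summed level of the 10 genes was 4227 ± 57.5 TPM in quiescent and 2691 ± 30.7 TPM in proliferating libraries (SD, n = 4 each). Without Selenom the sums were 2815 ± 28.1 and 2601 ± 28.6 TPM, so that most of the difference in the sum was Selenom. It made up 33.4% of the summed level in quiescent cells and 3.32% in proliferating cells. Nearly all of its estimated counts belonged to the coding transcript Selenom-201 in both groups (98.2% and 97.9%).

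In the Yme1l pair Selenom was in place 3357 of the 19703 genes with a TPM above 0 in the GFP control. In the KO it was in place 2435 of 19929. It stood at 57.9, 43.5 and 52.6 TPM in GFP control replicates 1 to 3, and at 70.5, 65.0 and 70.7 TPM in the KO replicates. The groups did not overlap, and the gap between them was small beside that of the quiescent comparison. The log2 fold change was 0.44 (SE 0.12), and 0.41 without KO replicate 3. The authors' deposited table gave a log2 fold change of 0.33 and does not call the gene at an adjusted p under 0.05.

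**Figure D1:**
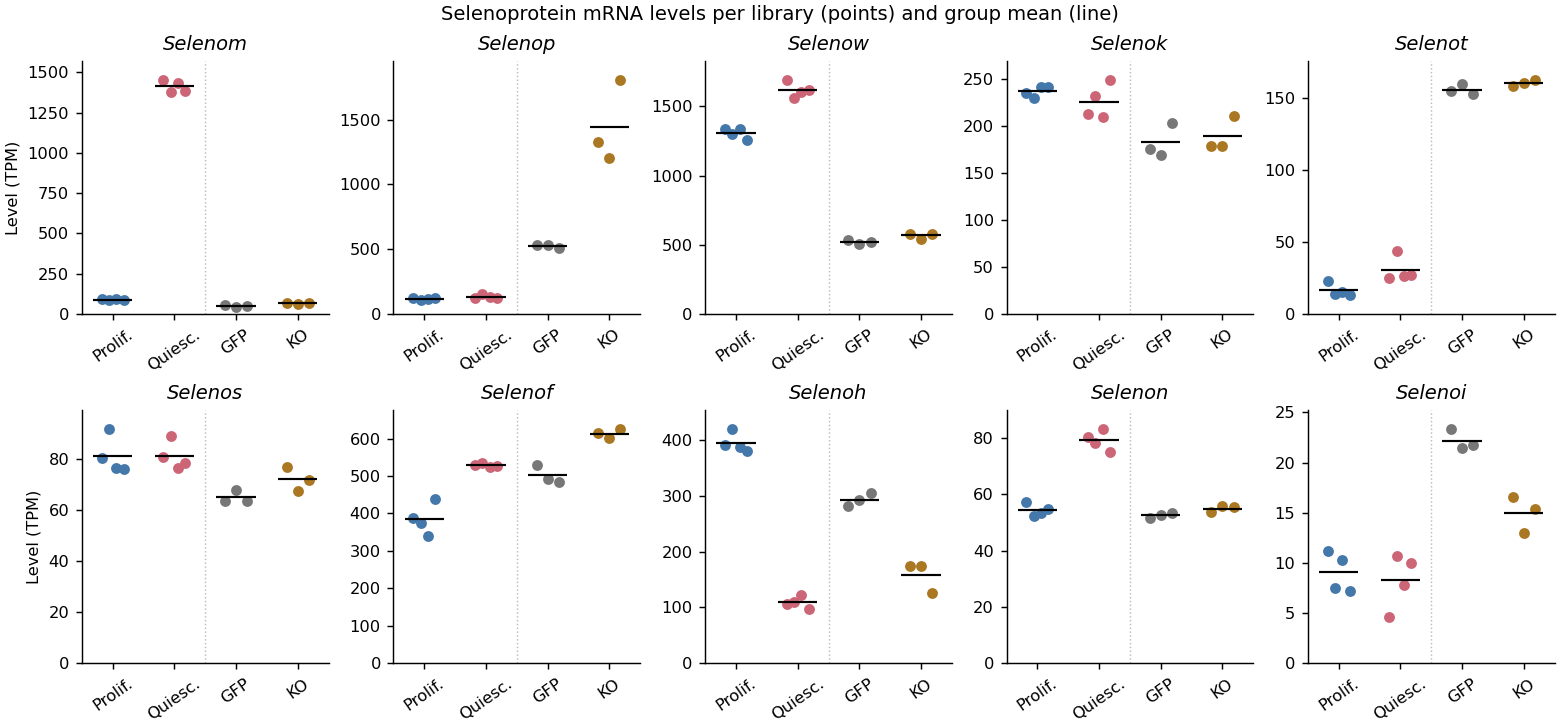
Level in TPM of each of the 10 selenoprotein genes in every library (points) with the group mean (black line), for the proliferating, quiescent, GFP control and Yme1l KO groups. The dotted line separates the 2 tables, which were made separately, and each panel has its own linear axis from 0. Selenom stands out in the quiescent libraries (1376 to 1453 TPM) and Selenop in the KO libraries (1203 to 1807 TPM), while Selenoh is lower in both.

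Selenop encodes the secreted selenium carrier with its many selenocysteines. In the GFP control it was at 537, 532 and 509 TPM, and in KO replicates 1 to 3 at 1326, 1203 and 1807 TPM. Every KO library held more than 2 times the level of every control library, with replicate 3 highest. The means were 1445 ± 319 TPM and 526 ± 14.8 TPM (SD, n = 3 each), and the log2 fold change was 1.46 (SE 0.17), in place 92 of 12625 genes. Without KO replicate 3 the log2 fold change was 1.27. In the KO the gene reached place 74 of the 19929 genes above 0 TPM, and it was the highest of the 10 genes.

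Between quiescent and proliferating cells Selenop differed little. It was at 127, 153, 135 and 127 TPM in quiescent replicates 1 to 4, and at 124, 107, 117 and 121 TPM in the proliferating libraries. The groups came close without overlapping, and the log2 fold change was 0.19 (SE 0.06), or 0.23 without quiescent replicate 2. It was 0.05 with library size alone as the scaling, which lowers the median of all genes from -0.01 to -0.15. Selenop is well expressed by astrocytes, so astrocyte markers are given beside it. The 6 astrocyte markers summed to 335 to 366 TPM in the KO and 251 to 258 TPM in the GFP control, and to 1041 to 1125 TPM in quiescent and 1020 to 1051 TPM in proliferating cells. None was at 0 in every library of a group. In the KO, Slc1a2 averaged 60.9 TPM against 33.4 TPM in the control and S100b 143 against 94.2 TPM, and both rose, as did Aldh1l1 and Gja1. Gfap (3.15 against 2.54 TPM) did not pass, and Aqp4 was below the expression filter. In quiescent cells the near-equal sums held opposite changes, since Aldh1l1 fell (595 against 908 TPM) while Gfap (211 against 30.0 TPM), S100b (177 against 30.2 TPM), Slc1a2 and Aqp4 rose, and Gja1 did not pass. The part of such cells in the levels of Selenop and Selenom was not tested.

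Selenoh, whose product is a redox protein of the nucleus and nucleolus, was lower in quiescent cells and lower in the KO. It stood at 107, 109, 123 and 97.1 TPM in quiescent and at 390, 420, 388 and 381 TPM in proliferating libraries. All quiescent libraries lay below all proliferating ones, with means of 109 ± 10.7 and 395 ± 17.3 TPM (SD, n = 4 each). The log2 fold change was -1.86 (SE 0.07), in place 410 from the bottom of the genes tested, and -1.77 without quiescent replicate 2.

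In the KO libraries Selenoh was at 174, 175 and 126 TPM, and in the GFP control at 282, 292 and 305 TPM. The groups did not overlap, and KO replicate 3, the highest for Selenop, was the lowest for Selenoh. The log2 fold change was -0.86 (SE 0.11), in place 487 from the bottom, and -0.72 without KO replicate 3. Both main transcripts, Selenoh-203 and Selenoh-202, hold the selenocysteine codon. The share of Selenoh-202 was 18.8 ± 3.53% in the KO and 29.8 ± 3.26% in the GFP control (SD, n = 3 each), and 26.0 ± 2.25% and 25.0 ± 4.39% in quiescent and proliferating cells (SD, n = 4 each).

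Selenow, Selenof and Selenot belong with Selenom to the members whose proteins have a thioredoxin-like fold. Selenow, a small cytosolic protein, was the most abundant of the 10 in both groups of the first table, at 1691, 1556, 1605 and 1619 TPM in quiescent and 1334, 1302, 1335 and 1257 TPM in proliferating libraries. The quiescent libraries were all higher, by a log2 fold change of 0.29 (SE 0.05), or 0.41 without quiescent replicate 2. The KO libraries held it at 579, 543 and 580 TPM and the control at 532, 507 and 523 TPM. The KO libraries lay just above the controls, with a log2 fold change of 0.12 (SE 0.05), which was 0.09 to 0.15 in the alternative analyses and 0.11 without KO replicate 3.

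Selenof encodes an ER protein that binds UDP-glucose glycoprotein glucosyltransferase, a checkpoint of protein folding. It was at 529, 535, 525 and 525 TPM in quiescent and 388, 375, 339 and 438 TPM in proliferating libraries, a log2 fold change of 0.43 (SE 0.05), or 0.54 without quiescent replicate 2. The groups did not overlap, and the proliferating libraries were the more scattered. The KO libraries were at 614, 601 and 626 TPM and those of the control at 530, 492 and 484 TPM, again without overlap, with a log2 fold change of 0.27 (SE 0.05), or 0.25 without KO replicate 3.

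Selenot encodes a thioredoxin-like protein of the ER membrane. Its level was 25.2, 43.6, 26.4 and 27.5 TPM in quiescent and 22.8, 14.3, 15.5 and 13.1 TPM in proliferating libraries. The groups did not overlap, but quiescent replicate 2 stood well above the rest of its group and proliferating replicate 1 close to the quiescent libraries. The log2 fold change was 0.99 (SE 0.18), and 0.87 (SE 0.09) without quiescent replicate 2. In the Yme1l pair it was nearly equal, at 161 ± 2.01 TPM in the KO and 156 ± 3.498 TPM in the control (SD, n = 3 each), with a log2 fold change of 0.04 (SE 0.05), or 0.02 without KO replicate 3.

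Selenok and Selenos encode ER membrane proteins that take part in the removal of misfolded proteins, and SELENOK also in protein palmitoylation. Neither was called in either comparison, except that Selenok was lower in quiescent cells with library size alone as the scaling (-0.19), and both signs turned without quiescent replicate 2 (0.04 and 0.03). Selenok was at 225 ± 18.4 TPM in quiescent and 237 ± 5.56 TPM in proliferating cells, and Selenos at 81.2 ± 5.54 and 81.1 ± 7.37 TPM (SD, n = 4 each). The libraries of the groups were intermixed for both genes, with log2 fold changes of -0.05 (SE 0.06) for Selenok and -0.03 (SE 0.07) for Selenos. In the Yme1l pair the log2 fold changes were 0.08 (SE 0.06) and 0.15 (SE 0.08), or 0.04 and 0.16 without KO replicate 3. A large part of the Selenok counts belonged to a transcript annotated for nonsense-mediated decay, Selenok-203, which has no selenocysteine codon. Its share was 45.2 ± 3.74% in proliferating and 42.8 ± 2.70% in quiescent cells (SD, n = 4 each), against 36.3 ± 4.41% in the GFP control and 34.8 ± 3.87% in the KO (SD, n = 3 each). Selenok and Selenot have pseudogenes among the 7 selenoprotein pseudogenes in the tables, and no library assigned more than 2 estimated counts to any of the 7. How the quantification divided reads between near-identical copies was not tested.

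Selenon encodes a calcium-sensing ER membrane protein known from inherited muscle disease. It was at 79.3 ± 3.46 TPM in quiescent and 54.5 ± 2.05 TPM in proliferating cells (SD, n = 4 each), with all quiescent libraries higher and a log2 fold change of 0.53 (SE 0.05), or 0.63 without quiescent replicate 2. In the KO it was at 55.0 ± 1.24 TPM and in the control at 52.6 ± 0.96 TPM (SD, n = 3 each), a log2 fold change of 0.07 (SE 0.05), or 0.06 without KO replicate 3.

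Selenoi, an ethanolamine phosphotransferase that makes phosphatidylethanolamine, was the lowest of the 10 in every group. In quiescent libraries it was at 4.56, 10.7, 7.80 and 10.02 TPM and in proliferating ones at 11.2, 7.50, 10.3 and 7.20 TPM. The groups overlapped, with a log2 fold change of 0.16 (SE 0.15) that became 0.35 without quiescent replicate 1, 0.12 without replicate 2 and -0.15 in limma on log2(TPM + 1). In the KO it was at 16.6, 13.0 and 15.3 TPM and in the control at 23.4, 21.4 and 21.8 TPM. There the groups were separate, and the log2 fold change was -0.35 (SE 0.09), or -0.30 without KO replicate 3, against -0.54 in the authors' deposited table. The share of its counts in Selenoi-201, a transcript annotated for nonsense-mediated decay, varied from 0% to 27.7% among the quiescent libraries.

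Of the 10 genes, 6 were called higher in quiescent cells (Selenom, Selenot, Selenon, Selenof, Selenow and Selenop), 1 lower (Selenoh) and 3 were not called at an adjusted p under 0.05. Over all genes tested, 29.9% were called higher, 35.5% lower and 65.4% in either direction. In the KO, 4 were called higher (Selenop, Selenom, Selenof and Selenow) and 2 lower (Selenoh and Selenoi), beside 25.4% higher, 26.2% lower and 51.6% in either direction over all genes. The call for Selenow in the KO was lost in 10 of 15 alternative analyses, among them without each control replicate and without KO replicate 1. The members were chosen with these results known, and nothing is read from the counts. At 2-fold or more and called, there were Selenom and Selenoh in quiescent cells (20.7% of all genes passed) and Selenop in the KO (5.23%). On CPM, 6 of the 10 lay higher and 1 lower without overlap in quiescent cells, beside 26.4%, 33.2% and, in either direction, 59.7% of all genes. In the KO 7 lay higher and 2 lower without overlap, beside 30.5%, 30.8% and 61.4%. The median log2 fold change of the 10 was 0.24 in quiescent cells and 0.10 in the KO, against -0.01 and 0.00 over all genes tested.

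**Figure D2:**
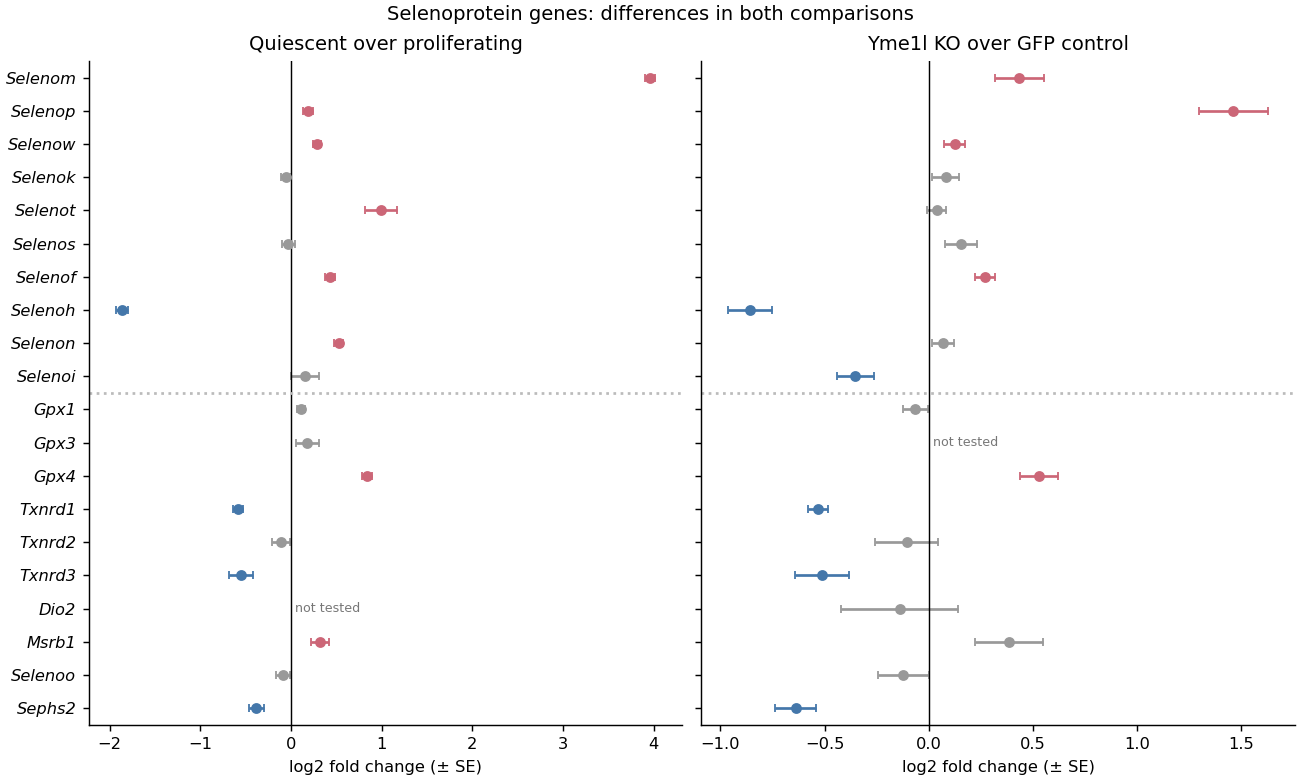
Log2 fold change with its standard error for the 10 genes (above the dotted line) and the other selenoprotein genes tested in at least 1 comparison (below it), in quiescent over proliferating cells (left) and in Yme1l KO over GFP control (right). The axes have different ranges, and colour marks a gene called higher (red), lower (blue) or not called (grey). Selenom (3.96) and Selenoh (-1.86) lie farthest out on the left, and Selenop (1.46) and Selenoh (-0.86) on the right.

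The order of the levels differed between the groups. In quiescent cells Selenow, Selenom, Selenof, Selenok, Selenop, Selenoh, Selenos, Selenon, Selenot and Selenoi followed each other from high to low, and of these neighbours only Selenos and Selenon overlapped. In proliferating cells the order was Selenow, Selenoh, Selenof, Selenok, Selenop, Selenom, Selenos, Selenon, Selenot and Selenoi, with overlap between Selenoh and Selenof and between Selenom and Selenos. Selenom was thus second in quiescent cells and sixth in proliferating cells, and Selenoh sixth and second. In the GFP control Selenop, Selenow and Selenof were at the top and overlapped in turn (526, 521 and 502 TPM), whereas in the KO Selenop stood clear of Selenof and Selenow (1445, 613 and 567 TPM).

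The 2 groups kept in FGF and EGF, one in each table, held the 10 genes at unequal levels. Selenot averaged 156 TPM in the GFP control and 16.4 TPM in proliferating cells, a ratio of 9.51, and Selenop 526 against 117 TPM, a ratio of 4.49. Selenow was at 521 against 1307 TPM, a ratio of 0.40, and Selenom at 51.3 against 89.4 TPM, a ratio of 0.57. These ratios ran with base composition: the transcripts of Selenot, Selenoi, Selenop and Selenof have a GC content of 39.3% to 44.5% and ratios above 1, and those of the other 6 have 45.7% to 61.7% and ratios below 1. Within the quiescent group, replicate 2 held the highest level of Selenot, Selenoi, Selenop and Selenof, and also of Selenos, and the lowest of Selenom and Selenow. The part of base composition in any difference between groups was not tested, and virus, table and library preparation cannot be told apart here.

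**Figure D3:**
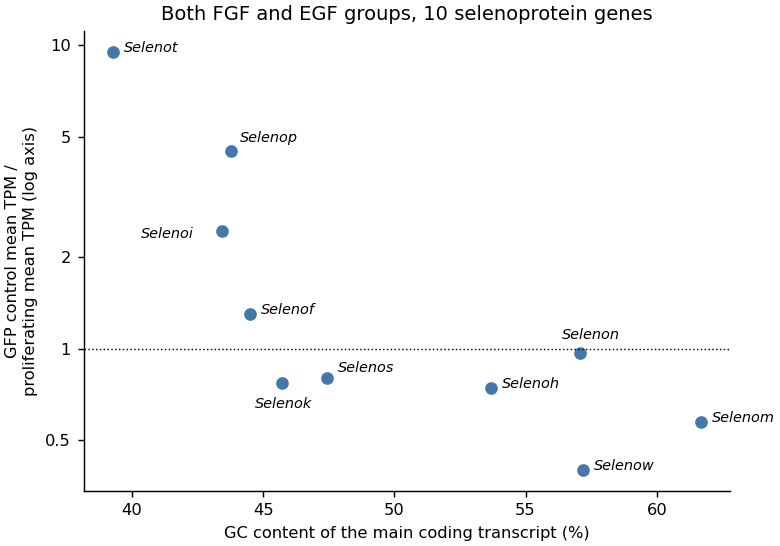
Ratio of the mean level (TPM, log axis) in the GFP control to that in proliferating cells, against the GC content (%) of each gene's main coding transcript, for the 10 selenoprotein genes. The dotted line marks equal levels. Selenot, at 39.3% GC, has a ratio of 9.51, and Selenow, at 57.2% GC, a ratio of 0.40.

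Among the 14 other mouse selenoprotein genes, 9 were tested in each comparison and 5 were below the expression filter. The sets of 9 are not the same, since Gpx3 was tested in the quiescent comparison only and Dio2 in the KO only. Gpx3 averaged 14.3 TPM in quiescent and 11.9 TPM in proliferating cells, and 0.22 TPM in the GFP control. Gpx4, the glutathione peroxidase that reduces lipid hydroperoxides, was at 353 CPM in proliferating and 633 CPM in quiescent cells and rose by 0.84 on the log2 scale (SE 0.05, adjusted p = 5.12e-10, edgeR). In the KO it rose from 101 to 146 CPM, by 0.53 (SE 0.09, adjusted p = 0.000631). Txnrd1, the cytosolic thioredoxin reductase, fell in both, by 0.58 (SE 0.05, adjusted p = 9.19e-08) and by 0.53 (SE 0.05, adjusted p = 1.86e-06) on the log2 scale. Txnrd3, a thioredoxin reductase best known from testis, and Sephs2, the selenoprotein that makes selenophosphate, fell in both as well. Msrb1, a methionine sulfoxide reductase, rose in quiescent cells (0.32, adjusted p = 0.00871). That call was lost with library size alone as the scaling and with replicate number as a block in the fit. In the KO Msrb1 passed when KO replicate 2 was left out and in limma. In quiescent cells 2 of the 9 rose and 3 fell, beside 29.9% higher and 35.5% lower over all genes tested. In the KO 1 rose and 3 fell, beside 25.4% and 26.2%. Gpx1 (log2 fold change 0.11, adjusted p = 0.0513) missed the threshold in quiescent cells and passed it in 8 of 17 alternative analyses, among them DESeq2, RLE factors, limma and leaving out quiescent replicate 2 or 3 or proliferating replicate 4. Without quiescent replicate 2, 3 of the 9 rose. The median log2 fold changes were -0.09 and -0.12. The groups of each pair did not overlap for any of the genes that passed. Over all genes tested, 59.7% had no overlap in the quiescent comparison and 61.4% in the KO.

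The genes that make selenocysteine and insert it were mostly lower in both comparisons. Of 14 tested, 9 fell and 2 rose in quiescent cells, beside 35.5% lower and 29.9% higher over all genes tested. In the KO 9 fell and 1 rose, beside 26.2% and 25.4%. The medians were -0.41 and -0.32 on the log2 scale, against -0.01 and 0.00 over all genes tested. In quiescent cells the falling genes included Eefsec, the elongation factor for selenocysteine (11.9 CPM against 22.8 CPM, -0.95 on the log2 scale, SE 0.14, adjusted p = 1.93e-05), and Sephs1, a relative of Sephs2 (-0.76, adjusted p = 6.16e-08). They also included Trnau1ap, which binds the selenocysteine tRNA (-0.59, adjusted p = 2.05e-06), Pstk, the kinase of that tRNA's serine (-0.43, adjusted p = 0.00242), and Sephs2 (-0.38, adjusted p = 0.000831). Eif4a3 (-0.89) and Rpl30 (-0.62) fell too, and both have general roles in RNA processing and the ribosome besides their binding to the SECIS element. Secisbp2, the main SECIS-binding protein, fell by 0.26 (adjusted p = 0.0362), a call lost in 11 of 17 alternative analyses, 7 of which left out a library (any but proliferating replicate 1). Trit1, a tRNA-modifying enzyme, fell by 0.51 (adjusted p = 0.0244), lost in 6 of 17, among them without proliferating replicate 5 or quiescent replicate 1, 3 or 4. Without quiescent replicate 2, 8 of the list fell. The genes that rose were Secisbp2l, a relative of Secisbp2 (1.55, SE 0.33, adjusted p = 0.00361), and Sepsecs, which completes the synthesis of selenocysteine on its tRNA (1.14, SE 0.25, adjusted p = 0.000829).

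In the KO, Sephs2 (-0.64, SE 0.10, adjusted p = 9.45e-05) and Ncl, the nucleolar protein nucleolin (-0.61, SE 0.06, adjusted p = 4.24e-06), fell most on this list. Eif4a3 (-0.51), Eefsec (-0.40), Alkbh8 (-0.38), Rpl30 (-0.33), Sars (-0.32) and Sephs1 (-0.21) fell as well. Trit1 (-0.36) fell at an adjusted p of 0.0344, a call lost in 6 of 15 alternative analyses, among them without control replicate 2 or 3 and without KO replicate 1, and that of Sephs1 was lost without control replicate 3. The rising gene was Secisbp2l (0.21, SE 0.06, adjusted p = 0.00508), lost in limma and in the fit of all 14 libraries (adjusted p 0.0743 to 0.496). Those of Alkbh8 and Ncl were also lost in that fit, and that of Eefsec in DESeq2. Pstk, Trnau1ap, Secisbp2 and Sepsecs did not pass, although Pstk did without KO replicate 1. In the KO, 9 of the list also fell without KO replicate 3.

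Genes of selenium uptake and recycling went different ways. Lrp8, the receptor that takes up SELENOP in the brain, was at 66.6 CPM in quiescent against 31.1 CPM in proliferating cells, a rise of 1.10 on the log2 scale (SE 0.09, adjusted p = 1.67e-08). In the KO, where Selenop was high, it was at 23.7 CPM against 46.4 CPM and fell (-0.97, SE 0.10, adjusted p = 3.87e-06). The difference between these 2 changes was not tested. Scly, the lyase that frees selenium from selenocysteine, rose in both, by 0.36 (adjusted p = 0.00218) and 0.51 (adjusted p = 0.0025). Lrp2, another receptor of SELENOP, fell in quiescent cells by 0.85 (adjusted p = 0.00693), with overlapping groups, and was not called in limma. In the KO it passed only when control replicate 3 was left out. Selenbp1, which binds selenium without holding selenocysteine, rose in the KO (0.99, adjusted p = 0.000181).

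**Figure D4:**
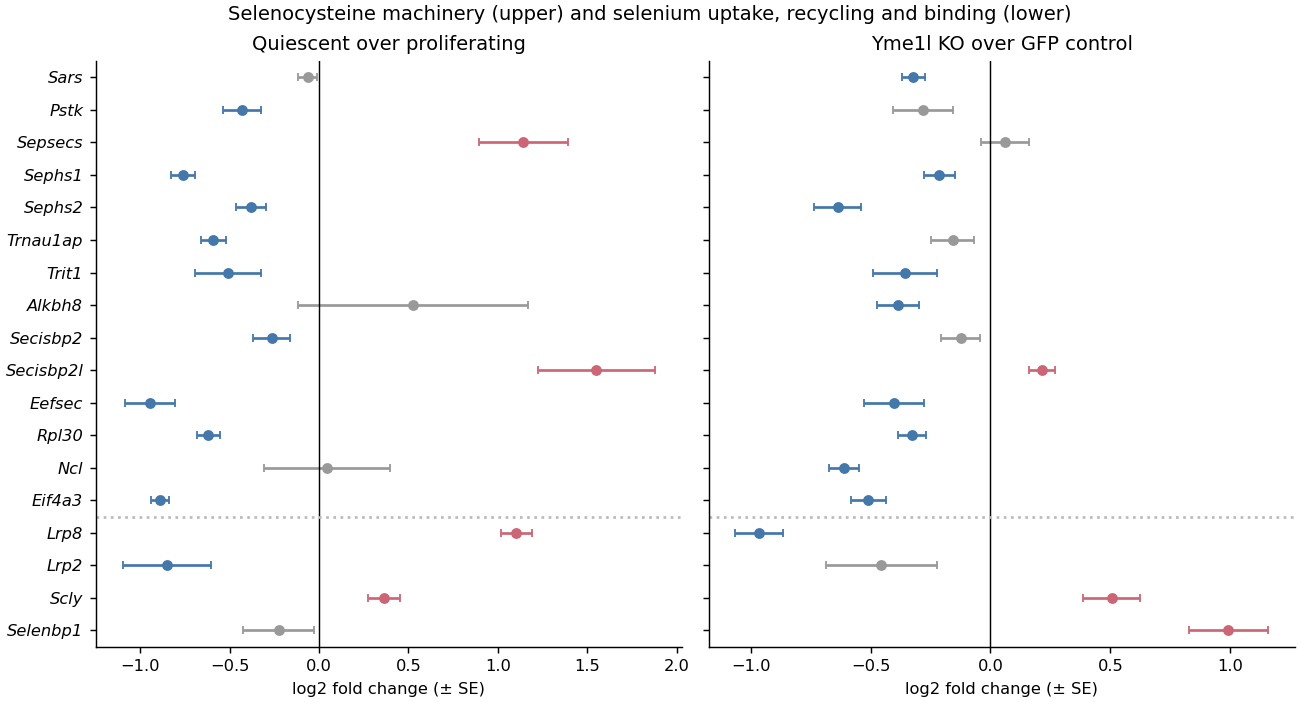
Log2 fold change with its standard error for genes of selenocysteine synthesis and insertion (above the dotted line) and of selenium uptake, recycling and binding (below it), in quiescent over proliferating cells (left) and in Yme1l KO over GFP control (right), on axes of different range. Colour marks a gene called higher (red), lower (blue) or not called (grey). Of 14 machinery genes, 9 are called lower in each panel, beside 35.5% (left) and 26.2% (right) of all genes tested. Lrp8 is at 1.10 on the left and -0.97 on the right.

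Several of the 10 proteins work in ER pathways, whose genes were called about as often as all genes tested in quiescent cells (12 of 19 for folding and 8 of 14 for degradation, beside 65.4%). In the KO the genes of both lists were called more often than all genes tested, of which 51.6% were called. Of 19 folding genes 4 were called higher and 9 lower there, and of 14 degradation genes 6 higher and 4 lower. Over all genes tested, 29.9% were called higher and 35.5% lower in quiescent cells, and 25.4% and 26.2% in the KO. Nothing is read from the counts of these lists. Of 19 tested genes of ER folding and stress, 11 rose and 1 fell in quiescent cells, with a median of 0.28, and 4 rose and 9 fell in the KO, with a median of -0.18. Canx, the lectin chaperone calnexin, rose in both (1.04, adjusted p = 0.00124, and 0.21, adjusted p = 0.00129). Its call was lost in quiescent cells with replicate number as a block (adjusted p = 0.0564). In the KO its call was lost in the fit of all 14 libraries (adjusted p = 0.289). Atf4, a transcription factor of the stress response, fell in both (-0.91, adjusted p = 6.18e-10, and -0.43, adjusted p = 1.33e-05), and in the KO Pdia6, a protein disulfide isomerase, fell by 0.46 (adjusted p = 7.18e-05). Of 14 genes of ER-associated degradation and partners of SELENOK and SELENOF, 6 rose and 2 fell in quiescent cells, and 6 rose and 4 fell in the KO. Nploc4, 1 of the 2 that fell in quiescent cells (adjusted p = 0.0437), lost its call in 12 of 17 alternative analyses, 7 of which left out a library (any but proliferating replicate 1). Uggt2 (0.85, adjusted p = 0.0292), among those that rose, lost it in 6 of 17, including without quiescent replicate 2 or proliferating replicate 1 or 2. In the KO, Uggt1 (-0.16, adjusted p = 0.0281) lost it in 7 of 15, including without any 1 control replicate or KO replicate 1, and Zdhhc6 without control replicate 2. Rising in both comparisons were Sel1l (0.76, adjusted p = 8.12e-07, and 0.27, adjusted p = 0.000354), Os9 (0.48, adjusted p = 2.09e-07, and 0.50, adjusted p = 9.72e-06) and Herpud1 (0.51 and 0.45). Zdhhc6, the palmitoyltransferase that works with SELENOK, fell in quiescent cells by 0.50 (adjusted p = 3.81e-05).

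Of 12 tested genes of phosphatidylethanolamine and phosphatidylcholine synthesis, the pathway of SELENOI, 6 rose and 3 fell in each comparison. Chpt1, the choline counterpart of Selenoi, rose in both (1.01, adjusted p = 5.11e-08, and 0.37, adjusted p = 0.000548). Pcyt2, which makes the substrate of SELENOI, fell in both (-0.32, adjusted p = 0.000511, and -0.26, adjusted p = 0.00952), and the other falling genes were Pisd and Pemt. In the KO none of these 3 was called without control replicate 3, and Pemt lost its call in 8 and Pisd in 7 of 15 alternative analyses, in both cases also without control replicate 1 or KO replicate 2. Pemt lost it further without control replicate 2 or KO replicate 3, and Pisd without KO replicate 1. Of ER calcium channels and pumps, 8 of 12 rose and 2 fell in quiescent cells, and 6 of 11 rose and 1 fell in the KO. Beside the counts of both lists, 29.9% of all genes tested were called higher and 35.5% lower in quiescent cells. In the KO these shares were 25.4% and 26.2%. Orai2, a subunit of the store-operated calcium channel, rose in both (2.03, adjusted p = 2.51e-11, and 0.77, adjusted p = 2.55e-05). Ryr3, a ryanodine receptor, fell in both (-2.29, adjusted p = 9.49e-05 but not called in limma, and -0.71, adjusted p = 0.00156). It was near the floor at 0.42 CPM in quiescent and 2.14 CPM in proliferating cells, with 2 to 23 estimated counts per library. Its log2 fold change in quiescent cells was -2.44 to -0.34 in the alternative analyses.

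The genes whose profiles over the 14 libraries were most like that of Selenom were Grin3a, Man1c1, Phyhipl, Zfp469 and Id1. Likeness was the root mean square difference of log2 CPM, centred within each table, and was 0.22 to 0.25 for these 5. The 9143 candidates had a mean of at least 5 CPM in each table, which a gene can reach through its higher group alone. The 5 were picked for likeness over these same libraries, so that fold changes near those of Selenom follow from the choice and support nothing. In quiescent cells their log2 fold changes were 3.37 to 4.19, beside 3.96 for Selenom. In the KO they ranged from 0.34 to 0.99, beside 0.44. Grin3a encodes a subunit of a glutamate receptor, Man1c1 a mannosidase, and Id1 an inhibitor of DNA binding by helix-loop-helix factors that is a well-known target of BMP signalling. With TPM in place of CPM, Zfp469 was replaced and the other 4 stayed among the nearest 5.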

How the data were processed

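Estimated counts per gene and per transcript, made with salmon, and TPM values were deposited by the authors in a table for each pair of groups. The authors also deposited log2 fold changes with adjusted p-values, and the submitters' processing notes name GRCm39, DESeq2 1.30.1 and R 4.0.3. The sources used here give no salmon version. Columns were tied to samples through the deposited design tables. Counts were rounded and tested in edgeR 4.0.16 (R 4.3.3) by its quasi-likelihood test (robust, TMM factors, low counts removed with filterByExpr) on the 2 groups of a table, with Benjamini-Hochberg adjustment over all genes tested (called under 0.05). Standard errors were derived from each log2 fold change and its F statistic. CPM are scaled by TMM, and levels of different genes were compared in TPM. No test crosses the tables. The 4 rows without a gene ID held 0 counts. The test was also run on simulated counts with far fewer changed genes than were called in these data. That run cannot show how the scaling behaves when so many genes differ, and nothing is concluded from it. Selenocysteine codons are from GENCODE M21.

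The 10 genes and all gene lists were chosen with earlier results of these data known. Genes named in the text are the 10, all measured genes of the 3 selenium lists, markers, and the 5 most like Selenom. Of the other lists, up to 3 per direction and comparison were named by size of change among those called. Outside that rule, Sel1l in the KO and Os9 in quiescent cells are given beside their change in the other comparison. Sephs2 is on 2 lists. Alternatives were RLE factors, library size alone, DESeq2 1.42.0, limma 3.58.1 on log2(TPM + 1), length-scaled counts, no filter, a minimum of 1 CPM throughout a group, 1 fit of all 14 libraries, a replicate block and leaving out each library.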

Additional observations from a re-analysis of the deposited data

Results flagged for a closer look

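Selenot in quiescent replicate 2 was at 43.6 TPM, while the other 3 quiescent libraries lay between 25.2 and 27.5 TPM. The gap to the nearest library was 0.873 of the group's range, above Dixon's limit for a group of 4. It was the single flag among 20 combinations of gene and group with 4 libraries, and chance flags about 1 in 20. The log2 fold change of Selenot was 0.99 with this library and 0.87 without it. The same library was the deepest of its group, with 8797750 estimated counts against 6475099 to 7552950. The part of depth was not tested.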

How the results depend on the processing

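No direction of a called gene reversed. Among the 10 genes, calls changed for Selenow in the KO (lost in 10 of 15 alternatives), for Selenop in quiescent cells (lost with library size alone and with all 14 libraries in 1 fit), for Selenok (gained with library size alone) and for Selenoi (gained without quiescent replicate 1). Library size alone left 35.1% of calls higher against 45.7%, moved the quiescent calls to 2 lower members, and the other selenoprotein genes to 1 higher and 5 lower. Other selenoprotein genes called higher in quiescent cells numbered 4 in DESeq2 and 1 under the replicate block. In the KO they numbered 2 in limma and 1 to 2 when a library was left out. The machinery gene that rose in the KO was 0 in limma and in the fit of all 14 libraries. Same-numbered replicates did not deviate together (correlations -0.35 to -0.01 in the first table and -0.05 to 0.00 in the second), so the replicate numbers were not taken as pairs. With the block, 2859 genes were called higher and 3694 lower in quiescent cells, against 3664 and 4346, and 3063 and 3189 in the KO, against 3201 and 3308. Calls lost with the block among genes named in the text were those of Canx (adjusted p = 0.0564), Txnrd3 (0.0506), Msrb1, Secisbp2, Trit1, Nploc4 and Uggt2 in quiescent cells, and of Selenow, Pemt and Pisd in the KO. Length-scaled counts differed from the estimated counts by at most 0.0554 and repeat the main analysis. Groups of 3 or 4 libraries limit what can be said of small differences such as that of Selenow in the KO.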
